A study of Mus musculus with 24 samples.

Results

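A set of 9 regulators of oxidative metabolism in muscle was followed in mouse gastrocnemius, the large calf muscle: the oestrogen-related receptors Esrra, Esrrb and Esrrg, the PGC-1 coactivators Ppargc1a and Ppargc1b, the fatty acid receptors Ppara and Ppard, the nuclear respiratory factor Nrf1 and the mitochondrial transcription factor Tfam. The 9 members were taken by symbol from the 54752 gene IDs counted, and each matched 1 ID. They were proposed with earlier results of these data known. RNA was sequenced from whole muscle in 24 libraries that form 8 groups of 3, in a study of a conditional knockout of the endocytic adaptors Numb and Numb-like in muscle fibres. All groups carried floxed alleles of both genes, written Numb(f/f)/NumbL(f/f). The HSA-MCM genotype adds a tamoxifen-dependent Cre recombinase (MerCreMer) driven by the promoter of human skeletal actin, a gene of muscle fibres. The groups were HSA-MCM females given tamoxifen or vehicle, flox females (floxed alleles without the transgene) given tamoxifen or vehicle, and the same 4 combinations in males. The sources used here give neither age, dose and time after treatment nor whether each library is a separate animal. The p-values therefore measure the spread between these libraries, which may be technical in part.

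The labels disagree with each other in places. The 3 male HSA-MCM libraries titled as vehicle controls have tamoxifen in their treatment field and were grouped by title. WT stands in the titles of the 6 flox male libraries, but floxed alleles in their genotype field. HSA-MCM females, flox females and all males were deposited in 3 separate tables, so the vehicle groups of females were not compared, and in females genotype and table cannot be told apart. Sex and table cannot be told apart either. Levels set side by side across tables are given as description.

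Libraries held 21516819 to 43014516 counts in genes. Neither targeted gene passed the test in any of the 4 pairs of tamoxifen and vehicle groups (lowest adjusted p 0.153, Numbl in flox males, edgeR quasi-likelihood test), though some groups did not overlap. Over all exons, Numb was lower without overlap in HSA-MCM females (18.9 to 19.1 CPM, counts per 1000000 counts, with tamoxifen and 20.7 to 23.8 CPM with vehicle), in flox females (17.5 to 19.8 and 21.1 to 25.3 CPM) and in flox males (15.3 to 16.5 and 16.9 to 19.99 CPM). It overlapped in HSA-MCM males, at 17.2 to 19.98 CPM with tamoxifen and 18.1 to 20.6 CPM with vehicle. Numbl was higher without overlap in flox females and flox males, at 5.02 to 6.49 CPM with tamoxifen and 3.43 to 4.28 CPM with vehicle in the males. Counts per gene do not resolve the exons that Cre removes, so they do not check the genotype labels. The muscle label was checked on fibre markers: 9 markers of fast fibres summed to 115871 to 235846 CPM, and 10 markers of slow fibres, among them Myh7 (slow myosin heavy chain), summed to 181.5 to 8576 CPM. The fast troponin gene Tnnc2, 1 of those 9, ranged over 1.86 to 3.40 CPM in the table of males and over 6312 to 14562 CPM in the tables of females, a difference between tables whose cause was not tested. Of the HSA-MCM males, tamoxifen replicate 3 and vehicle replicate 3 stood apart, with a mean log2 CPM over the slow markers of 3.65 and 5.10, against 6.31 in the next lowest of all libraries. Called results that the HSA-MCM males enter are also given without these 2 libraries.

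Oestrogen-related receptors are nuclear receptors with no known natural ligand. They bind DNA next to genes of the citric acid cycle, the respiratory chain and fatty acid oxidation, and their activity depends on PGC-1 coactivators, which dock on them and recruit the transcription machinery. In muscle, PGC-1alpha rises with exercise and cold, and drives mitochondrial growth together with the oestrogen-related receptors, nuclear respiratory factors and PPARs. Nrf1 and its partner GABP are known to switch on Tfam, whose protein coats and packages mitochondrial DNA and acts as a factor in its transcription.

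Promoter sequences are shown for the member that rose after tamoxifen, Tfam, and for 2 of the members that varied with slow fibre markers, Esrrg and Ppara. They were taken from RefSeq on GRCm38.p6 and run from 250 bases before to 50 bases after the annotated start, 5′ to 3′ on the gene's strand. Capitals mark motif matches: CCGGAAG, the core bound by GABP and other ETS factors, at position -47 in Tfam, CTATTTATAG, a site of the muscle factor MEF2, at position -22 in Esrrg, and GCGCATGCGC, an NRF-1 site that reads alike on both strands, at position -31 in Ppara. The Tfam window is chr10:71237995-71238294 (minus strand), the window of the first of 4 Esrrg starts is chr1:187608756-187609055 (plus strand), and the Ppara window is chr15:85735526-85735825 (plus strand).
Tfam: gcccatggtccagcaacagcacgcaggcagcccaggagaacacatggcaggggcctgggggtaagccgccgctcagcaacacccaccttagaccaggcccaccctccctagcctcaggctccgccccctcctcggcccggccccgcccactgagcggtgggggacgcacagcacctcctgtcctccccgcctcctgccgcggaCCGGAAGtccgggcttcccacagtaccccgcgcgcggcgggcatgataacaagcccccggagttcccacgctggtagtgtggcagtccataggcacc
Esrrg: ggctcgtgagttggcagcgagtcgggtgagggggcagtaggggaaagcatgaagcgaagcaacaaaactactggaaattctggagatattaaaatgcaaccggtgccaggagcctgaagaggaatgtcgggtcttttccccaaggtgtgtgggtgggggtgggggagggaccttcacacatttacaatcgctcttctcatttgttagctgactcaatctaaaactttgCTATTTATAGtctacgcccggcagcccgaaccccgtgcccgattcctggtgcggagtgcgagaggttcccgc
Ppara: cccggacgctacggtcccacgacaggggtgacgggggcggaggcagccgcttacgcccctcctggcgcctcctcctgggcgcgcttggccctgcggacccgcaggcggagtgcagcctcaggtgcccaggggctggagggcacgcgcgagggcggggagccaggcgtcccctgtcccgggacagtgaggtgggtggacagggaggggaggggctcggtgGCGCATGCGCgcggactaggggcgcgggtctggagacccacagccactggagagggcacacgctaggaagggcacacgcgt

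In all, 8 of the 9 members had 13 such windows, and Ppargc1b is named only. Both strands were searched for AAGGTCA (the element of oestrogen-related receptors), GGTCANNNTGACC (oestrogen response element), AGGTCANAGGTCA (PPAR with RXR), GCGCATGCGC (NRF-1), CCGGAAG (GABP and ETS), TGACGTCA (cAMP response), CACGTG (clock factors), TTATGNAA (D-box), the MEF2 site (CTA, 4 bases of A or T, then TAG) and ACANNNTGT (glucocorticoid response). Besides the matches shown, the only one was TTATGCAA at position -130 of the second Esrrg window. Of all 32817 promoter windows of this length, 8.86% held the GABP and ETS core, 0.558% the MEF2 site, 0.966% the NRF-1 site and 3.39% the D-box. No window of a member held AAGGTCA, which 4.72% of all windows held.

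In the 12 vehicle libraries Esrra was the most abundant of the 9 transcripts per length, at 24.2 ± 3.57 RPKM (CPM per kilobase of exon; mean ± SD, n = 12). Tfam followed at 10.4 ± 0.531 RPKM and Ppargc1a at 6.28 ± 4.64 RPKM. Esrrg had 4.39 ± 1.38 RPKM and Ppard 4.25 ± 0.552 RPKM. Lower were Ppargc1b at 2.62 ± 0.352 RPKM, Ppara at 2.36 ± 0.827 RPKM, Esrrb at 1.46 ± 0.456 RPKM and Nrf1 at 1.17 ± 0.0907 RPKM. The ranges of Esrra and Tfam did not overlap, nor did those of Ppard and Ppargc1b. All other neighbours in this order overlapped. Behind these levels stand 32 to 524 counts per library for Esrrb, the most thinly counted member, and 2125 to 4001 for Esrra.

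All 9 members passed the filter on low counts in every comparison. Each was set against vehicle within a sex and genotype, with edgeR's quasi-likelihood test and Benjamini-Hochberg adjustment over all genes, and a threshold of 0.05. With tamoxifen, 0 of 9 members passed in HSA-MCM females, where 1.32% of all 14211 genes passed, and 0 of 9 in flox females, where 0.131% of 14539 genes passed. In HSA-MCM males 1 of 9 passed, against 0.889% of 15628 genes, and in flox males 1 of 9, against 2.89% of 15628 genes. In both male pairs that member was Tfam. At an unadjusted p under 0.05 there were 3 members in HSA-MCM females and 1 in flox females, DESeq2 called 2 and 0 in these pairs, and limma-voom called 0 in each.

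**Figure D1:**
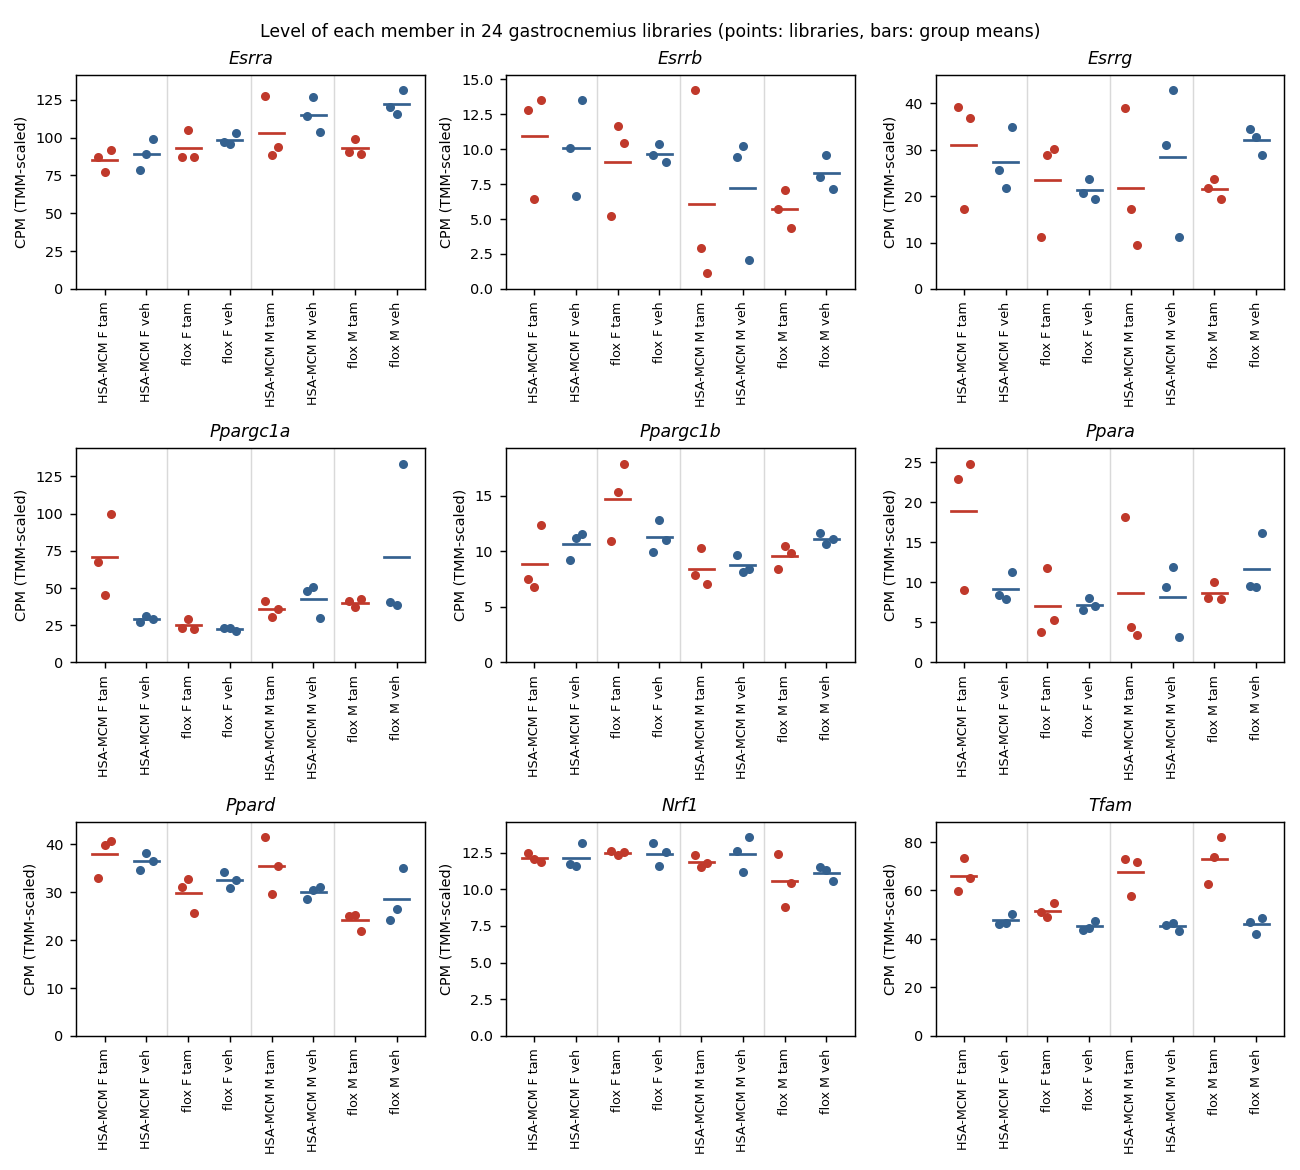
Level of each of the 9 members in CPM (vertical axes, from 0) in every library, by group, with tamoxifen in red left of its vehicle group in blue; points are libraries and bars are means of 3. Tfam is the member whose tamoxifen and vehicle libraries are separate in all 4 pairs, and flox male vehicle replicate 3 stands at 133 CPM for Ppargc1a.

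Tfam transcripts were higher after tamoxifen in each of the 4 pairs of groups. In HSA-MCM females Tfam stood at 59.6, 73.4 and 65.1 CPM with tamoxifen, against 46.0, 46.7 and 50.2 CPM with vehicle. In flox females it stood at 51.0, 49.0 and 54.9 CPM with tamoxifen, against 43.6, 44.4 and 47.5 CPM with vehicle. These groups did not overlap, and in flox females the highest vehicle library was close to the lowest tamoxifen library. In HSA-MCM males the tamoxifen libraries had 73.1, 57.8 and 71.9 CPM, against 45.9, 46.7 and 43.1 CPM in the vehicle libraries. In flox males the tamoxifen libraries had 62.7, 73.8 and 81.9 CPM, against 47.1, 42.2 and 48.8 CPM in the vehicle libraries. The 12 tamoxifen libraries ranged over 49.0 to 81.9 CPM and the 12 vehicle libraries over 42.2 to 50.2 CPM, and within each pair the tamoxifen libraries were the more widely spread. Of all 16670 genes tested over the 24 libraries, 34 (0.204%) were likewise higher without overlap in each of the 4 pairs. None of the 9 members was lower without overlap in each, as 0.258% of genes were. In single pairs, groups did not overlap in either direction for 22.4% of genes in HSA-MCM females, 14.2% in flox females, 13.8% in HSA-MCM males and 28% in flox males.

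On the log2 scale the change of Tfam was 0.66 ± 0.11 (SE) in flox males (adjusted p 0.00683) and 0.58 ± 0.11 in HSA-MCM males (adjusted p 0.0291), both past the threshold in edgeR's test. It was 0.48 ± 0.09 in HSA-MCM females (adjusted p 0.0515) and 0.19 ± 0.08 in flox females (adjusted p 0.526), which edgeR did not call. Averaged over the 4 pairs, the change was 0.48 ± 0.05, with an adjusted p of 1.95e-06 in edgeR's fit of all 24 libraries, and 1 of 9 members passed, against 8.83% of the 16670 genes. In HSA-MCM males the call was lost when vehicle replicate 1, 2 or 3 or tamoxifen replicate 1 or 3 was left out. The log2 change was then 0.53 to 0.60, with an adjusted p of 0.0717 to 0.125 (edgeR). Without the male HSA-MCM libraries lowest in slow markers it was 0.50 (adjusted p 0.225), and the mean over the 4 pairs was 0.46 (adjusted p 1.41e-05). In flox males the call held without any 1 library.

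In males the Tfam change was 0.58 with the recombinase transgene and 0.66 without it, and the difference between genotypes was not called in either sex. HSA-MCM minus flox, it differed by -0.08 ± 0.16 on the log2 scale in males (adjusted p 0.929) and by 0.29 ± 0.12 in females (unadjusted p 0.0316, adjusted p 0.609, edgeR). No member passed this test in females, where 0% of 15182 genes did, or in males, where 0.0128% of 15628 genes did. At an unadjusted p under 0.05 there were 2 members in females and 1 in males. DESeq2 called 1 and 0 of the 9, and limma-voom 0 and 0. The female minus male difference of the flox changes, a comparison added after the values were seen, was -0.47 ± 0.14 for Tfam (unadjusted p 0.00308, adjusted p 0.204). Of the 9 members 0 passed there, with 0.204% of genes passing, and 2 had an unadjusted p under 0.05.

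Markers of other cells were looked at beside Tfam. In bulk muscle, fewer cells of a type and less RNA per cell cannot be told apart. Over the 4 pairs, 4 of 50 markers passed the edgeR test, against 8.83% of all genes tested, and 3 without the 2 libraries lowest in slow markers. Of the 5 brown fat markers, 4 passed the filter on low counts and were tested. Scx, a tendon transcription factor, rose by 0.50 ± 0.09 on the log2 scale (adjusted p 0.00143), while the 5 markers of its list summed to 311 to 363 CPM in tamoxifen-treated HSA-MCM males, against 206 to 298 CPM in vehicle males, and overlapped between groups in the other pairs. Ucp1, the uncoupling protein of brown fat, rose (adjusted p 0.00199) but stayed low, at 0 to 2.73 CPM in the tamoxifen libraries and 0 to 0.955 CPM in the vehicle libraries, and was at 0 in every flox vehicle male. The endothelial receptor Kdr fell by 0.48 ± 0.15 (adjusted p 0.0478), a call lost without those 2 libraries, and the macrophage gene Cd68 fell by 0.64 ± 0.20 (adjusted p 0.0446). In HSA-MCM males all 5 white fat markers had a positive log2 change, with a median of 1.12 and none past the test. Their sums did not overlap, at 14.6 to 27.7 CPM with tamoxifen and 5.64 to 14.0 CPM with vehicle. Other sums also stood apart. In flox males, where 28% of genes did so, fast fibre markers had 142517 to 154827 CPM with tamoxifen and 128401 to 138904 CPM with vehicle. Satellite cell markers summed to 29.4 to 31.8 and 23.6 to 28.1 CPM there, and brown fat markers to 167 to 176 and 182 to 218 CPM. All 3 satellite cell markers had a positive log2 change in flox males. So did 2 of the 4 brown fat markers tested, although their sum was lower, and none of either list passed the test. The sum of satellite cell markers was lower with tamoxifen in HSA-MCM females, at 29.9 to 33.0 against 33.7 to 40.4 CPM. In that pair 1 of the 3 markers had a positive log2 change, of 0.64, and none passed the test. The part of these cells and of fibre makeup in the Tfam result was not tested. No slow or fast fibre marker passed the test over the 4 pairs. With the slow marker level as a covariate, which does not cover the other lists, Tfam kept its mean change of 0.48 (adjusted p 1.19e-06, edgeR).

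**Figure D2:**
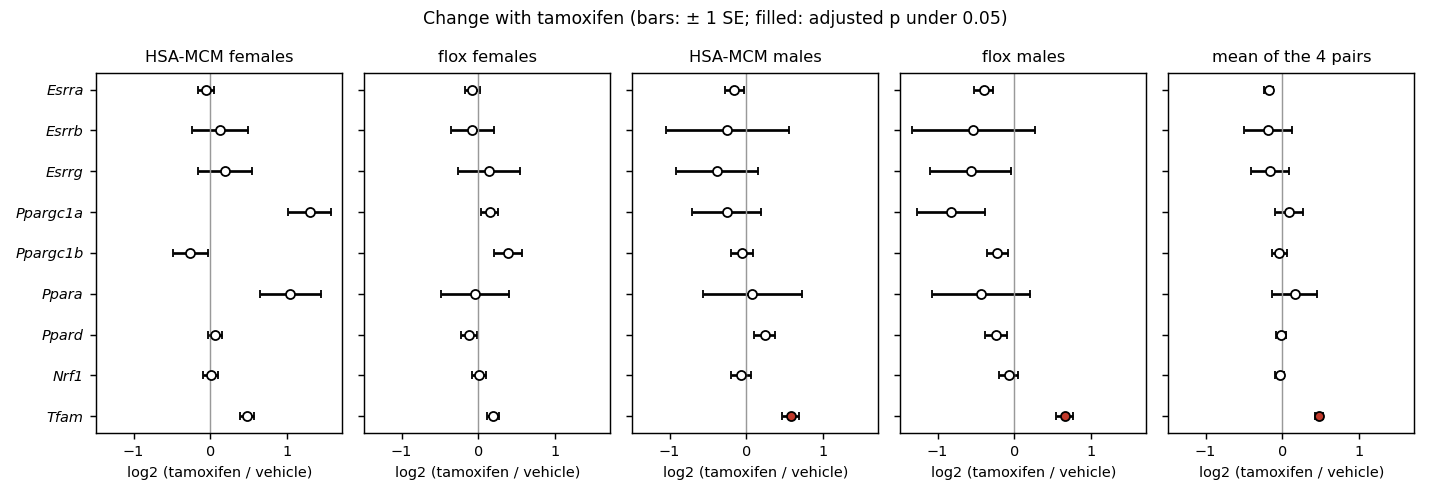
Log2 ratio of tamoxifen to vehicle (horizontal axes) with ± 1 SE for the 9 members (rows) in the 4 pairs of groups and their mean; filled points have an adjusted p under 0.05 in edgeR's quasi-likelihood test. Tfam lies at 0.19 to 0.66 in all 4 pairs and Nrf1 near 0 in each, while Ppargc1a spans -0.82 to 1.29.

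Nrf1, known as an activator of Tfam, kept nearly the same level throughout, from 8.82 to 13.5 CPM over the 24 libraries, the narrowest relative range of the 9 members. It stood at 12.4, 12.03 and 11.9 CPM in tamoxifen-treated HSA-MCM females, against 11.7, 11.6 and 13.1 CPM with vehicle, and at 12.6, 12.3 and 12.5 CPM in tamoxifen-treated flox females, against 13.1, 11.6 and 12.5 CPM with vehicle. In males it stood at 12.3, 11.5 and 11.8 CPM with tamoxifen and 12.6, 11.1 and 13.5 CPM with vehicle for HSA-MCM, and at 12.4, 8.82 and 10.4 CPM with tamoxifen and 11.5, 11.3 and 10.6 CPM with vehicle for flox. All 4 pairs overlapped, and the log2 changes lay between -0.07 and 0.01.

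Ppard, a PPAR that muscle expresses widely and that promotes fatty acid oxidation, differed between genotypes in males given tamoxifen. It had 41.4, 29.7 and 35.4 CPM in HSA-MCM males given tamoxifen, against 25.1, 25.3 and 22.0 CPM in flox males given tamoxifen. With vehicle it had 28.7, 30.4 and 31.2 CPM in HSA-MCM males, against 24.2, 26.4 and 35.0 CPM in flox males. The groups were separate with tamoxifen and overlapped with vehicle. The log2 difference with tamoxifen was 0.55 ± 0.14 (adjusted p 0.0411, edgeR), and 1 of 9 members passed this comparison, against 5.23% of the 15628 genes, while 27.6% of genes had groups that did not overlap. With vehicle the difference was 0.07 ± 0.14 (adjusted p 0.841). There 0 of 9 members passed in edgeR, against 0.947% of genes, with 1 at an unadjusted p under 0.05 and 0 by DESeq2 and limma-voom.

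The Ppard call did not hold without single libraries, while the log2 difference stayed at 0.44 to 0.59 where it was lost. It was lost without tamoxifen-treated HSA-MCM male 1 (log2 difference 0.44, adjusted p 0.0923) or 3 (0.55, 0.104), and without tamoxifen-treated flox male 1 (0.59, 0.0891), 2 (0.58, 0.0955) or 3 (0.49, 0.146). Calls over all genes, 817 in the main fit, were 897 without that HSA-MCM male 1 and 354 without 3. They were 280 to 351 without 1 of these flox males. Without the 2 libraries lowest in slow markers the log2 difference of Ppard was 0.55 (adjusted p 0.103). The change with tamoxifen itself was not called in any pair: 0.24 ± 0.14 in HSA-MCM males (adjusted p 0.631), -0.24 ± 0.14 in flox males (0.407), 0.06 ± 0.10 in HSA-MCM females (0.803) and -0.12 ± 0.10 in flox females (0.796). The genotype difference of these changes in males was 0.48 ± 0.20 (adjusted p 0.56). In females Ppard had 33.1, 39.96 and 40.6 CPM with tamoxifen and 34.7, 38.3 and 36.5 CPM with vehicle in HSA-MCM animals. Flox females had 31.1, 32.8 and 25.7 CPM with tamoxifen and 34.2, 30.9 and 32.5 CPM with vehicle, and both pairs overlapped.

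Ppargc1a, which encodes PGC-1alpha, had its largest difference in HSA-MCM females. Its folds and those of Esrra are printed although no edgeR call names them; they were chosen after their values were seen. The tamoxifen-treated HSA-MCM females had 67.6, 45.03 and 100.1 CPM, against 27.2, 31.1 and 28.9 CPM with vehicle. The groups did not overlap, as was so for 22.4% of genes in this pair, and the tamoxifen libraries differed among themselves by more than the whole vehicle range. The log2 change was 1.29 ± 0.28 (unadjusted p 0.00414, adjusted p 0.105, edgeR). DESeq2 called it (adjusted p 1.61e-06), and edgeR called it without tamoxifen replicate 2 (log2 change 1.53, adjusted p 0.0158). Of 12 alternative analyses these 2 passed and 10 did not.

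Elsewhere Ppargc1a did not separate tamoxifen from vehicle. Flox females had 23.0, 29.1 and 22.7 CPM with tamoxifen, against 22.9, 23.4 and 21.4 CPM with vehicle. HSA-MCM males had 41.2, 30.2 and 36.2 CPM with tamoxifen, against 48.01, 50.9 and 29.7 CPM with vehicle. Flox males had 41.3, 37.1 and 42.3 CPM with tamoxifen, against 40.7, 38.9 and 133 CPM with vehicle. All these groups overlapped, and flox male vehicle replicate 3 was far above the other libraries of its group. That library sets the log2 change in flox males, which was -0.82 ± 0.45 (adjusted p 0.385) with it and 0.016 (adjusted p 0.981) without it. HSA-MCM minus flox, the female changes of Ppargc1a differed by 1.15 ± 0.32 (adjusted p 0.428 in edgeR, 0.0399 in DESeq2). DESeq2 was the 1 of 17 alternatives that passed there. Female minus male, the HSA-MCM changes differed by 1.54 ± 0.53 (adjusted p 0.322), where 0 of 9 members passed, against 0.192% of genes, and 1 had an unadjusted p under 0.05.

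Ppargc1b, the second coactivator, varied less. It stood at 7.53, 6.76 and 12.3 CPM in tamoxifen-treated HSA-MCM females, against 9.24, 11.2 and 11.6 CPM with vehicle, and at 10.9, 15.3 and 17.9 CPM in tamoxifen-treated flox females, against 9.90, 12.8 and 11.04 CPM with vehicle. HSA-MCM males had 7.89, 10.3 and 7.07 CPM with tamoxifen, against 9.64, 8.14 and 8.40 CPM with vehicle, and flox males had 8.43, 10.5 and 9.85 CPM with tamoxifen, against 11.6, 10.7 and 11.1 CPM with vehicle. The groups overlapped in 3 pairs and were separate, with tamoxifen lower, in flox males, as 14.7% of genes were in that pair. Log2 changes lay between -0.26 and 0.39, with adjusted p-values of 0.461 to 0.948 (edgeR). Between vehicle males the HSA-MCM libraries were below all flox libraries, a comparison in which 23% of genes had separate groups.

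Esrra, the receptor most tied to respiratory chain genes and to PGC-1alpha in muscle, had a negative log2 change with tamoxifen in all 4 pairs, none of which passed the test. Flox males had 90.7, 99.3 and 89.4 CPM with tamoxifen, against 121, 116 and 131 CPM with vehicle, and the groups did not overlap. HSA-MCM males had 128, 88.3 and 93.8 CPM with tamoxifen, against 114, 127 and 104 CPM with vehicle. HSA-MCM females had 87.0, 77.0 and 92.1 CPM with tamoxifen, against 78.8, 88.9 and 99.4 CPM with vehicle, and flox females had 87.5, 105 and 87.4 CPM with tamoxifen, against 97.1, 95.8 and 103 CPM with vehicle. The last 3 pairs overlapped. The log2 change was -0.40 ± 0.12 in flox males (adjusted p 0.106) and lay between -0.16 and -0.05 in the others, and its mean over the 4 pairs was -0.17 ± 0.06 (unadjusted p 0.00617, adjusted p 0.0624, edgeR). DESeq2 called the mean (adjusted p 0.0415), as did edgeR without HSA-MCM female vehicle 1 (0.0443), flox female tamoxifen 2 (0.037) or HSA-MCM male tamoxifen 1 (0.00665). Of 31 alternative analyses of this mean, 6 passed and 25 did not. Of the 9 members, 1 was higher and 4 were lower without overlap in flox males, a pair in which 28% of all genes had separate groups. Exons of Esrra share 73 bases with Trmt112 on the opposite strand and 91 bases with Mir6990 on its own strand, and the strand setting of the counting is not given, so a few of its counts may belong to these genes. The other 8 members overlap no exon of another gene in the GENCODE annotation.

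Esrrg, Esrrb and Ppara varied widely between libraries in some of the groups. All 3 varied less in flox vehicle females, and Esrrg and Esrrb also in flox males. Changes of these 3 members with tamoxifen were not called in any pair. Esrrg, an oestrogen-related receptor known from oxidative muscle and heart, had 39.3, 17.2 and 36.9 CPM in tamoxifen-treated HSA-MCM females, against 25.5, 21.7 and 35.0 CPM with vehicle. Flox females had 11.2, 29.0 and 30.2 CPM with tamoxifen, against 20.7, 23.7 and 19.5 CPM with vehicle. In HSA-MCM males it had 38.9, 17.1 and 9.38 CPM with tamoxifen, against 31.1, 42.8 and 11.2 CPM with vehicle. These 3 pairs overlapped, and the lowest male values fell in the libraries lowest in slow markers. Flox males had 21.8, 23.6 and 19.4 CPM with tamoxifen, against 34.4, 32.7 and 28.9 CPM with vehicle, without overlap. The log2 change in flox males was -0.57 ± 0.53 (adjusted p 0.643) where all 12 male libraries share 1 estimate of the spread. It was -0.56 (adjusted p 0.0106) from the 6 flox libraries alone and -0.71 (adjusted p 0.0147) with the slow marker level as a covariate, both chosen for print after they were seen. In the other pairs it lay between -0.38 and 0.19. In HSA-MCM males without the 2 libraries lowest in slow markers, the log2 change of Esrrg was -0.40, that of Esrrb -0.19 and that of Ppara 0.09, with adjusted p-values of 0.833, 0.970 and 0.989 (edgeR).

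Esrrb, the third receptor, known best from stem cells and present at low levels here, ranged 12.1-fold from 1.17 to 14.2 CPM over the 24 libraries. HSA-MCM females had 12.8, 6.44 and 13.5 CPM with tamoxifen, against 10.1, 6.64 and 13.5 CPM with vehicle, and flox females had 5.24, 11.7 and 10.4 CPM with tamoxifen, against 9.57, 10.4 and 9.06 CPM with vehicle. HSA-MCM males had 14.2, 2.95 and 1.17 CPM with tamoxifen, against 9.43, 10.2 and 2.04 CPM with vehicle, and flox males had 5.70, 7.09 and 4.39 CPM with tamoxifen, against 8.03, 9.61 and 7.17 CPM with vehicle. The groups were separate in flox males alone, and by a narrow margin. The lowest library in each male HSA-MCM group was replicate 3. Log2 changes lay between -0.54 and 0.12, with adjusted p-values of 0.786 to 0.966 (edgeR).

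Ppara, the receptor through which fatty acids switch on their own oxidation, had 22.9, 9.05 and 24.8 CPM in tamoxifen-treated HSA-MCM females, against 8.47, 7.88 and 11.3 CPM with vehicle. The log2 change there was 1.04 and was not called (adjusted p 0.28, edgeR). Without tamoxifen replicate 2, which lay within the vehicle range, it was 1.37 and was called (adjusted p 0.0128). Flox females had 3.78, 11.8 and 5.35 CPM with tamoxifen, against 6.49, 8.08 and 7.07 CPM with vehicle. HSA-MCM males had 18.1, 4.45 and 3.37 CPM with tamoxifen, against 9.40, 11.9 and 3.20 CPM with vehicle, and flox males had 7.99, 10.1 and 7.93 CPM with tamoxifen, against 9.50, 9.40 and 16.1 CPM with vehicle. The groups overlapped in all 4 pairs, and the log2 changes of the last 3 lay between -0.43 and 0.08.

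**Figure D3:**
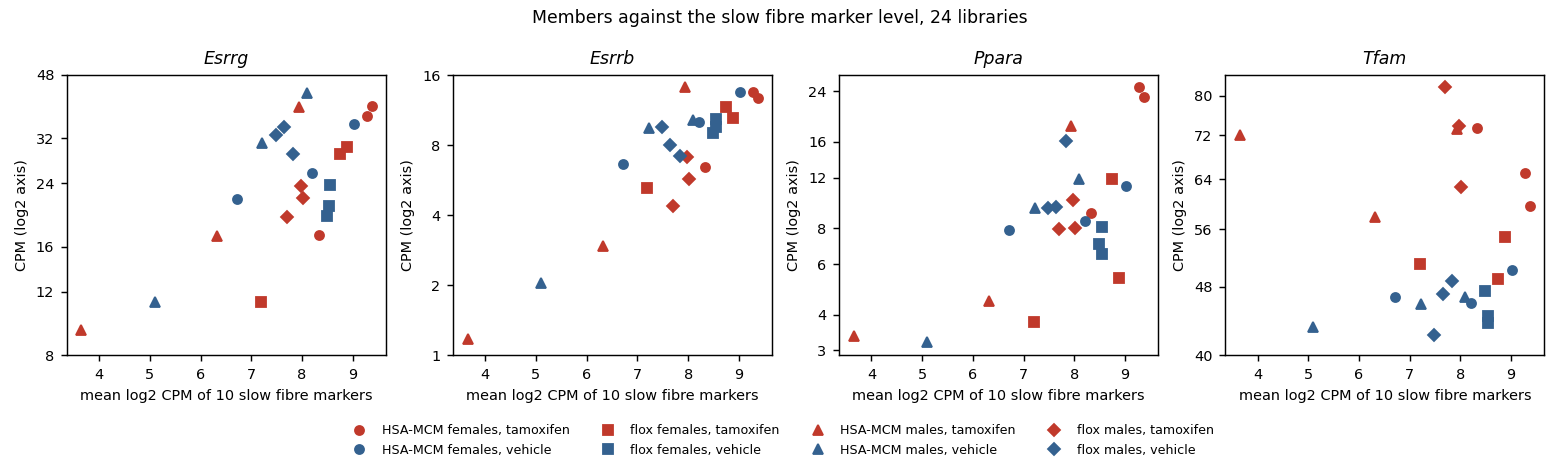
CPM of Esrrg, Esrrb, Ppara and Tfam (vertical log2 axes) against the mean log2 CPM of the 10 slow fibre markers (horizontal axes) in the 24 libraries; colour gives the treatment and shape the genotype and sex. The receptors are higher where the slow markers are higher, with HSA-MCM male tamoxifen 3 lowest at 3.65, while Tfam does not.

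These receptors moved with the slow fibre markers. After subtracting each group's mean, so that treatment, sex and genotype do not enter, log2 CPM of Esrrb had a Pearson r of 0.94 with the mean log2 CPM of the slow markers over the 24 libraries, Esrrg 0.92 and Ppara 0.82. Esrra had an r of 0.63, Ppargc1b 0.32 and Ppargc1a 0.30. Tfam at 0.03, Ppard at 0.01 and Nrf1 at -0.06 did not move with them. Without the 2 libraries lowest in slow markers, over the other 22, r was 0.84 for Esrrb, 0.88 for Esrrg and 0.73 for Ppara, and 0.19 for Tfam. These are descriptions with no test, since each r compares genes of the same libraries. The slow markers themselves differed between groups without a call. In HSA-MCM females all 10 had a positive log2 change with tamoxifen, with a median of 0.79, against 0.01 over all genes, and summed to 3970 to 8576 CPM, against 1322 to 6704 CPM with vehicle. In HSA-MCM males 1 of 10 had a positive log2 change, with a median of -0.60, and the sums were 181.5 to 3058 CPM with tamoxifen and 436 to 3680 CPM with vehicle. The median was -0.11 in flox females, where 3 of 10 were positive, and 0.25 in flox males, where 8 of 10 were. How far the muscle pieces sampled differed in fibre makeup was not tested.

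**Figure D4:**
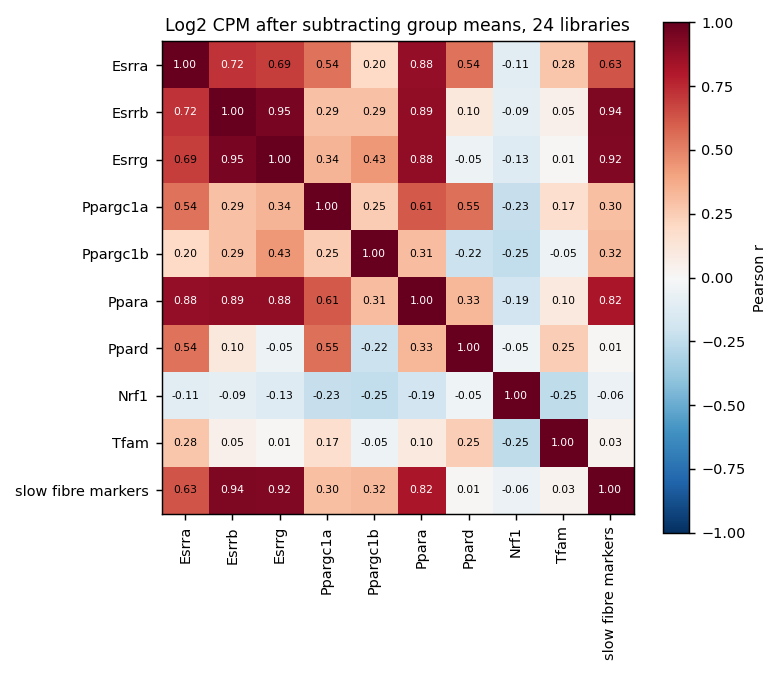
Pearson r of log2 CPM between the 9 members and the slow fibre marker level, over 24 libraries after subtracting group means (colour scale from -1 to 1). Esrrb, Esrrg and Ppara form a block with r of 0.88 to 0.95 among themselves and 0.82 to 0.94 with the slow markers, and Tfam and Nrf1 lie outside it.

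Among the members, Esrrb and Esrrg had an r of 0.95, Esrrb and Ppara 0.89, Esrrg and Ppara 0.88, and Esrra and Ppara 0.88. Without the 2 libraries lowest in slow markers these were 0.90, 0.84, 0.81 and 0.89. Over all 24, Ppargc1a had an r of 0.61 with Ppara, 0.55 with Ppard and 0.54 with Esrra. Flox male vehicle 3, far above its group for Ppargc1a at 133 CPM, was also the highest of its group for these 3 members. It had 16.1 CPM of Ppara, 35.0 CPM of Ppard and 131 CPM of Esrra, and r without that library was not tested. Over all 24, Nrf1 had no r above 0 with any other member, and its r with Tfam was -0.25. Without the 2 libraries lowest in slow markers, its r was 0.11 with Esrrb, 0.06 with Esrrg and below 0 with the others. Of 11357 other genes, those closest to Esrra by the same measure over all 24 libraries were Atp5d (0.91), Cyc1 (0.90) and Uqcrc1 (0.89), all parts of the respiratory chain or ATP synthase. Closest to Esrrb were Lpl (0.98), Ldhb (0.97) and Idh2 (0.97), to Esrrg Idh2 (0.97), Atp1b1 (0.97) and Rcan2 (0.97), and to Ppara Got2 (0.96), Dmac2 (0.95) and Sdhb (0.95). Ppargc1a lay closest to Usp2 (0.94), Cebpb (0.91) and Pdxk (0.89), again with flox male vehicle 3 included. Tfam lay closest to Ndufaf7 (0.81), Tmem246 (0.77) and Anapc15 (0.76). Ppard lay closest to Trim65 (0.86) and Aars (0.79), Ppargc1b to Amigo3 (0.75), Kri1 (0.75) and Slc7a1 (0.74), and Nrf1 to Ifng (0.76), Sin3b (0.75) and Dusp2 (0.72). All these genes were picked for the highest r among 11357 over 24 libraries. How high such a pick would lie for an unrelated gene was not tested.

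Around the members, 95 genes of 4 lists were tested. In the 4 pairs taken singly none of the 95 passed the edgeR test, while 10 in HSA-MCM females, 4 in flox females, 4 in HSA-MCM males and 10 in flox males had an unadjusted p under 0.05. DESeq2 called 2, 0, 1 and 1 of them in these pairs in that order, and limma-voom 1, 0, 0 and 0. Over the 4 pairs together 2 rose and 6 fell, 8 of the 95, where 8.83% of all genes passed, in lists whose medians lay close to that of all genes.

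Among 28 cofactors and partner factors, 1 rose, 6 fell and 21 did not pass in the mean over the 4 pairs, with a median log2 change of -0.06, against 0.00 over all genes. Nrip1, a corepressor that opposes oestrogen-related receptors and PPARs, rose by 0.81 ± 0.20 on the log2 scale (adjusted p 0.0165, edgeR). It averaged 68.3 ± 3.01 CPM with tamoxifen and 28.5 ± 9.72 CPM with vehicle in HSA-MCM females, 66.5 ± 17.6 and 39.3 ± 6.85 CPM in HSA-MCM males, 79.3 ± 8.30 and 37.3 ± 29.2 CPM in flox males, and 26.3 ± 5.47 and 24.3 ± 7.14 CPM in flox females (SD, n = 3 each, tamoxifen before vehicle). Flox females were the pair in which Nrip1 hardly differed. Of the genes that fell, those named here did so by small amounts: Lpin1, a lipid phosphatase that also coactivates with PGC-1alpha, by 0.31 ± 0.09, and Prkaa1, a catalytic subunit of the energy sensor AMPK, by 0.22 ± 0.06. The coactivators Ncoa1 and Ep300 fell by 0.18 ± 0.05 each and Yy1, a partner of PGC-1alpha, by 0.14 ± 0.04 (adjusted p 0.0157 to 0.035 for these 5 genes, edgeR). Exons of Ncoa1 and Ep300 overlap non-coding genes, so a few of their counts are uncertain. Without the 2 male HSA-MCM libraries lowest in slow markers, 0 of the 28 rose and 3 fell: Nrip1 had a log2 change of 0.72 (adjusted p 0.0546), Ncoa1 (0.0832) and Yy1 (0.0977) did not pass, and Lpin1, Prkaa1 and Ep300 did (0.0108 to 0.0466).

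Of 18 genes that maintain and transcribe mitochondrial DNA alongside Tfam, 1 rose, 0 fell and 17 did not pass, with a median of 0.01. Twnk, the mitochondrial DNA helicase, rose by 0.25 ± 0.07 (adjusted p 0.0232, edgeR). It averaged 45.4 ± 0.965 CPM with tamoxifen and 37.3 ± 1.85 CPM with vehicle in HSA-MCM females, and 37.8 ± 5.62 and 27.8 ± 0.597 CPM in HSA-MCM males. Flox males had 37.3 ± 1.83 CPM with tamoxifen and 29.0 ± 2.90 CPM with vehicle, and flox females 44.7 ± 2.30 and 47.1 ± 14.4 CPM, where the order was the other way. Without the 2 libraries lowest in slow markers the log2 change of Twnk was 0.23 (adjusted p 0.0525). Twnk shares 507 exon bases with Mrpl43 on the opposite strand, and reads of the pair cannot be told apart without strand.

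No gene of the 2 lists of downstream genes passed in the mean over the pairs. Of 27 respiration genes that oestrogen-related receptors and PGC-1 are known to drive, 0 passed in the edgeR test, 0 had an unadjusted p under 0.05, and DESeq2 and limma-voom called 0 each; the median was 0.02. Of 22 PPAR target genes of fatty acid use, 0 passed, 0 had an unadjusted p under 0.05, and both other tools called 0; the median was -0.06. Between genotypes in males given tamoxifen, 4 of the 95 genes passed, against 5.23% of all genes, among them 2 PPAR targets that were lower in HSA-MCM males. Pdk4, the kinase that shuts carbohydrate out of the citric acid cycle, averaged 109 ± 60.4 CPM in HSA-MCM males and 457 ± 11.3 CPM in flox males (log2 difference -2.07 ± 0.50, adjusted p 0.0486). Ucp3, an uncoupling protein of muscle, averaged 50.7 ± 18.6 CPM in HSA-MCM males and 150 ± 8.03 CPM in flox males (-1.57 ± 0.36, adjusted p 0.0399). With vehicle both were also lower on average in HSA-MCM males, with overlap and without a call. Pdk4 then averaged 298 ± 85.6 against 494 ± 230 CPM, and Ucp3 73.4 ± 17.5 against 144 ± 57.4 CPM. Between tamoxifen-treated males 5 of the 9 members had a positive log2 difference, and Ppard was the 1 that passed.

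In the same comparison Mef2c, a muscle transcription factor that PGC-1alpha coactivates, was higher in HSA-MCM males, at 758 ± 43.8 CPM, than in flox males, at 560 ± 26.5 CPM (log2 difference 0.43 ± 0.10, adjusted p 0.0232, edgeR). With vehicle Mef2c was also higher in HSA-MCM males, at 766 ± 17.4 against 578 ± 52.8 CPM, but was not called. Those vehicle groups did not overlap, as was so for 23% of genes. Rrm2b, a ribonucleotide reductase subunit that supplies mitochondrial DNA synthesis, was lower in HSA-MCM males than in flox males after tamoxifen (28.7 ± 1.41 and 36.3 ± 1.41 CPM, log2 difference -0.34 ± 0.08, adjusted p 0.0213) and after vehicle (29.1 ± 1.17 and 37.2 ± 1.77 CPM, -0.36 ± 0.08, adjusted p 0.0429). It overlaps an antisense gene over 734 exon bases. No other of the 95 genes passed the edgeR test between vehicle males, which makes 1 of 95, against 0.947% of all genes.

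These genotype calls were lost without the 2 male HSA-MCM libraries lowest in slow markers. Between tamoxifen-treated males the log2 difference was then -1.69 for Pdk4 (adjusted p 0.0583), -1.67 for Ucp3 (0.109), 0.44 for Mef2c (0.0547) and -0.33 for Rrm2b (0.0676, edgeR), and between vehicle males it was -0.38 for Rrm2b (0.111). Markers of other fibres and cells differed in the same comparisons with no marker past the test. Between tamoxifen-treated males 1 of 10 slow markers had a positive log2 difference, with a median of -1.14, and 1 of 5 white fat markers, with a median of -1.03, against a median of -0.01 over all genes. Between vehicle males 0 of 10 slow markers were positive, with a median of -0.47, and 0 of 5 white fat markers, with a median of -2.10, against -0.02 over all genes. Their part in the differences of Pdk4, Ucp3, Mef2c, Rrm2b and Ppard was not tested.

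**Figure D5:**
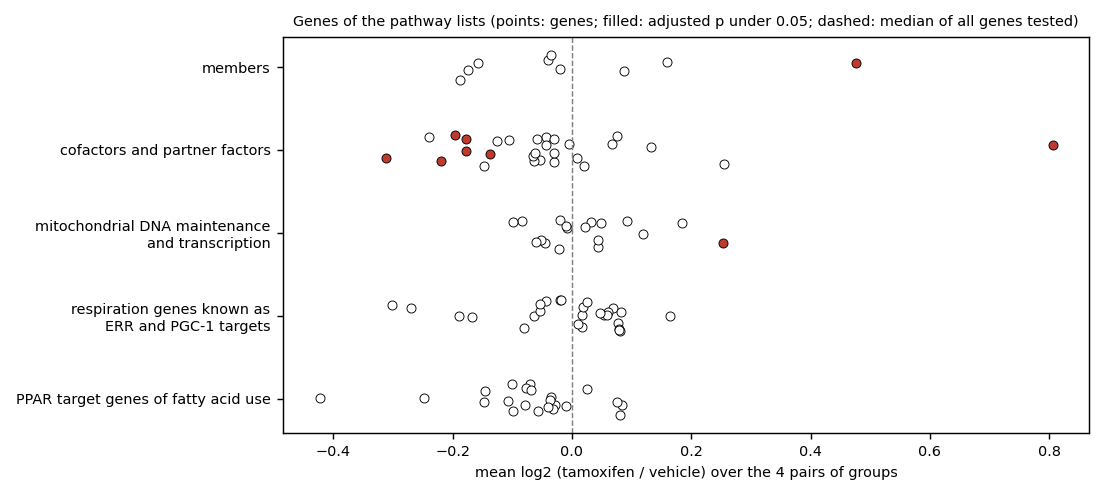
Mean log2 ratio of tamoxifen to vehicle over the 4 pairs (horizontal axis) for the 9 members and the genes of 4 pathway lists (rows; vertical scatter within a row has no meaning); filled points have an adjusted p under 0.05 in edgeR's test and the dashed line is the median of all genes. Tfam at 0.48, Nrip1 at 0.81 and Twnk at 0.25 are the filled points on the right, and no point is filled in the 2 lists of downstream genes.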

How the data were processed

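Total RNA of frozen gastrocnemius was sequenced in 24 libraries. The values the authors deposited are raw counts of reads by Ensembl gene ID, in 3 tables. The submitters' processing notes name STAR, featureCounts, limma, GRCm38 and mm10; library kit and strand setting are not given. Symbols, exon lengths and overlaps came from GENCODE release M21 (54723 of 54752 IDs matched) and promoters from RefSeq. edgeR 4.0.16 was used in R 4.3.3 with TMM scaling, filterByExpr (minimum count 10, total 15), robust quasi-likelihood F-tests, Benjamini-Hochberg adjustment over all genes tested, threshold 0.05. Female pairs used the 6 libraries of their table, male comparisons all 12, and the mean change all 24 with every contrast inside a table. The SE is the log2 change divided by the square root of F. Printed CPM are TMM-scaled over all 24 libraries, and RPKM are CPM per kilobase of merged exons. Replicates differed by more than sampling noise (chi-square per degree of freedom 8.34 to 104), so none was treated as a duplicate.

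The members and lists were chosen with earlier results of these data known. All 9 members are named with their values. List genes are named where they passed the threshold, up to 6 per direction, and the 3 genes most like each member by Pearson r (mean of at least 1 CPM). Of 97 list genes, 96 matched 1 ID; Atp5o matched more than 1 and was left out. Alternatives were DESeq2 1.42.0, limma-voom 3.58.1, RLE scaling, no filter, a slow fibre marker covariate, other sets of libraries, a replicate block and leaving out each library. The procedure was tested on simulated data. Some results that these rules select are not reported here.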

Additional observations from a re-analysis of the deposited data

How the results depend on the processing

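The mean tamoxifen change of Tfam stayed past the threshold in 31 of 31 alternatives (log2 change 0.44 to 0.50), and its change in flox males in 14 of 14 (0.57 to 0.75). Its change in HSA-MCM males held in 7 of 14 and the Ppard difference between tamoxifen-treated males in 5 of 12, there with a log2 difference of 0.44 to 0.66. Counts of the 9 members called moved as follows, where the cause was not tested. In HSA-MCM females the count was 0, and 2 with DESeq2, 1 with no filter on low counts, 1 with all 24 libraries in a single fit, and 0 to 2 leaving out 1 library. In HSA-MCM males it was 1, and 0 with the 6 libraries alone, 0 without the 2 libraries lowest in slow fibre markers (chosen after seeing the data), and 0 to 1 leaving out 1 library. In flox males it was 1, and 2 with no filter, 3 with the slow fibre covariate and 3 with the 6 libraries alone. For the mean change it was 1, and 2 with DESeq2, 2 with the slow fibre covariate, 2 without the HSA-MCM male groups, and 1 to 2 leaving out 1 library. For the genotype difference of the female changes it was 0, and 1 with DESeq2. Between tamoxifen-treated males it was 1, and 0 without the libraries lowest in slow markers and 0 to 1 leaving out 1 library. The Ppargc1a change in flox males, -0.82, became 0.016 without vehicle replicate 3 and was otherwise as low as -1.12.

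Over all genes, calls ranged over the alternatives from 37 to 941 in HSA-MCM females (187 in the main analysis), 3 to 329 in flox females (19), 27 to 328 in HSA-MCM males (139), 143 to 917 in flox males (452), and 1153 to 1868 for the mean change (1472). They ranged from 280 to 1312 between tamoxifen-treated males (817), 44 to 601 between vehicle males (148), 0 to 45 for the genotype difference in females (0) and 0 to 79 in males (2). For the added female minus male differences they ranged from 7 to 148 in HSA-MCM animals (32) and 15 to 154 in flox animals (34). RLE scaling moved the median of all genes by at most 0.020 on the log2 scale.

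Flox females share replicate numbers between tamoxifen and vehicle. Same-numbered libraries deviated with correlations of -0.20, -0.03 and -0.10, so the numbers do not pair them; with the replicate block 0 of 9 members were called, as without it, and Tfam had a log2 change of 0.19 (adjusted p 0.624).

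Depth limits Esrrb most, with as few as 32 counts in a library.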
